A study of Mus musculus with 36 samples.

Results

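The transcripts of 10 nuclear receptors that govern lipid, bile acid and xenobiotic metabolism in hepatocytes were followed across the day in livers with and without functional THRB. The receptors were taken by gene symbol, and all 10 were found among the 54532 genes of the count table. Livers came from 36 male mice of 2 to 3 months, 18 of them heterozygous controls (THRB+/-, called THRB-WT here) and 18 homozygous knockouts (THRB-/-, THRB-KO). The mice were kept under 12 h of light and 12 h of darkness with free access to chow, and 3 mice of each genotype were culled every 4 h, at ZT2, ZT6, ZT10, ZT14, ZT18 and ZT22 (ZT0 is lights on). The knockout is systemic, it impairs DNA binding by THRB, a receptor for thyroid hormone, and the controls carry 1 copy of the altered allele. RNA of whole liver was sequenced, so fewer cells of a type and less RNA per cell cannot be told apart.

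Nuclear receptors are transcription factors whose activity is set by small lipophilic ligands. *Ppara*, *Ppard* and *Pparg* encode receptors for fatty acids and their derivatives, *Nr1h3* encodes the oxysterol receptor LXR alpha, *Nr1h4* the bile acid receptor FXR and *Nr1i2* the xenobiotic receptor PXR. These bind DNA together with a retinoid X receptor, encoded by *Rxra* or *Rxrb*, whereas *Hnf4a* encodes a homodimeric factor that maintains hepatocyte identity. *Nr0b2* encodes SHP, which lacks a DNA-binding domain, is induced by FXR and represses bile acid synthesis. The thyroid hormone receptors share the RXR partner with the other heterodimeric receptors, and many receptors of liver are transcribed with a diurnal rhythm.

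The libraries held between 29063273 and 42530551 counts each. The summed level of 7 hepatocyte markers ranged from 64150 to 90770 CPM (normalized counts scaled to a common library size) in THRB-WT and from 69590 to 93790 CPM in THRB-KO livers. Of 4 adipocyte markers, which matter for *Pparg*, *Lep* was at 0 in all libraries and the summed level did not exceed 0.235 CPM. Kupffer cell markers (6 genes) summed to 150 to 474 CPM in THRB-WT and to 159 to 306 CPM in THRB-KO livers. No hepatocyte or Kupffer cell marker passed the test for genotype, and the adipocyte markers had too few counts to be tested. *Thrb*, the targeted gene, was counted in every library, with a median of 27.9 CPM (24.3 to 38.5) in THRB-WT and 31.9 CPM (26.2 to 37.7) in THRB-KO livers. Counts per gene do not separate the altered exon from the rest of the transcript, so *Thrb* gave no check of the genotype labels.

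The 10 genes are protein coding and lie on 7 chromosomes of GRCm38, with positions as the count table gives them. Of the fatty acid receptors, *Ppara* (ENSMUSG00000022383) at chr15:85734983-85802819, *Ppard* (ENSMUSG00000002250) at chr17:28232700-28301474 and *Pparg* (ENSMUSG00000000440) at chr6:115360951-115490399 lie on the plus strand. Of the bile acid and sterol receptors, *Nr1h4* (ENSMUSG00000047638) at chr10:89454234-89533585 and *Nr1h3* (ENSMUSG00000002108) at chr2:91184061-91202834 lie on the minus strand, and *Nr0b2* (ENSMUSG00000037583) at chr4:133553376-133556536 lies on the plus strand. The xenobiotic receptor gene *Nr1i2* (ENSMUSG00000022809) at chr16:38248323-38294824 lies on the minus strand. The partner genes *Rxra* (ENSMUSG00000015846) at chr2:27676440-27762957 and *Rxrb* (ENSMUSG00000039656) at chr17:34031812-34038393 and the hepatocyte factor *Hnf4a* (ENSMUSG00000017950) at chr2:163506808-163572910 lie on the plus strand. In the GENCODE M21 annotation, *Nr1h3* shares 34 exonic bases with *Gm13783* on the same strand. *Hnf4a* spans the antisense gene *Hnf4aos* (mean 7.79 CPM) without shared exonic bases, and since the libraries were non-directional, reads of the pair cannot be told apart by strand.

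The DNA before a RefSeq start site of 4 receptor genes is shown because the transcripts carried the largest rhythm (*Ppard*), the largest difference between genotypes (*Nr0b2*) or a binding motif of the receptor family in this window (*Nr1h4*, *Rxra*). The sequences are from RefSeq on GRCm38.p6, 5′ to 3′ on the strand of the gene. Capitals mark an E-box (CACGTG, the site of clock factors) or the hexamer bound by nuclear receptors (AGGTCA), both searched on either strand. *Ppard*, chr17:28232504-28232699, plus strand, 196 bases up to the first annotated exon, with no match. *Nr0b2*, chr4:133553126-133553375, plus strand, 250 bases. *Nr1h4*, chr10:89506659-89506908, minus strand, 250 bases before a start site inside the gene as the count table spans it. *Rxra*, the second of 2 start sites, chr2:27709042-27709291, plus strand, 250 bases. Windows of *Pparg* also held the hexamer, past their first annotated exon base, and are not shown.
Ppard: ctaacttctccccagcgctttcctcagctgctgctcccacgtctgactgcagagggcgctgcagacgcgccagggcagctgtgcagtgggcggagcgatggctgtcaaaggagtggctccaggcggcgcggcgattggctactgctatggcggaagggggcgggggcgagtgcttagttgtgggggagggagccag
Nr0b2: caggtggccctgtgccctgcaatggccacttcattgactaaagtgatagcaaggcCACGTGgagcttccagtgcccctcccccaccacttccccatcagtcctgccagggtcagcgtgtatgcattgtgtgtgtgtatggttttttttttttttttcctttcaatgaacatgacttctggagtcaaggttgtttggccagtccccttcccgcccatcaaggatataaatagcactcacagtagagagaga
Nr1h4: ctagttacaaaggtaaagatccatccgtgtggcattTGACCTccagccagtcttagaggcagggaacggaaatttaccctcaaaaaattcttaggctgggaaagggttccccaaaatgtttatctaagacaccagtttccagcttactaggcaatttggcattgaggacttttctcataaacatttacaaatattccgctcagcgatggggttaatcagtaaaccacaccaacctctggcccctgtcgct
Rxra: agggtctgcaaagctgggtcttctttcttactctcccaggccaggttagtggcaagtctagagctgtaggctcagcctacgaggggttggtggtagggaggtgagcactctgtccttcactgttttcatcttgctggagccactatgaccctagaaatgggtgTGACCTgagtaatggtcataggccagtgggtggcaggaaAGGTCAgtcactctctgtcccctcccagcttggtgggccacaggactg

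Over the 16 windows of 250 bases that RefSeq gives for the 10 receptors, the E-box was found in *Nr0b2* alone, at positions -195 to -190 from the start. It was present in 6.02% of the 32841 windows of all genes. The hexamer was found in 4 of the 16 windows, which belong to 3 receptors, and in 14% of all windows. It lay on the strand opposite to *Nr1h4*, and once on each strand at the second *Rxra* start. The windows of 2 of 3 *Pparg* starts held it too. No window of a receptor held a D-box (TTATGTAA or TTACGTAA, 0.932% of all windows). None held direct repeats of the hexamer with 1 (AGGTCANAGGTCA), 2 (AGGTCANNAGGTCA) or 4 (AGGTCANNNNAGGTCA) bases between them, which were in 0.0335%, 0.00913% and 0.0152% of all windows. The search finds exact letters in a short window and says nothing about binding elsewhere.

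Levels of different genes were compared per length, as CPM per kb of the gene length given in the count table. *Hnf4a* was the highest receptor in THRB-WT livers with 133.5 ± 21.9 CPM per kb (SD, n = 18). It was followed by *Rxra* (77.6 ± 12.4), *Nr1h4* (63.2 ± 9.23), *Nr0b2* (46.6 ± 21.5), *Nr1h3* (43.9 ± 3.32) and *Nr1i2* (37.6 ± 7.37). *Rxrb* (11.4 ± 1.06) and the 3 PPAR genes were lower, *Ppara* with 8.30 ± 2.51, *Ppard* with 4.07 ± 3.42 and *Pparg* with 3.46 ± 1.03 CPM per kb. Neighbours in this order of means were compared by their log2 differences within mice, with a two-sided permutation test of 9 pairs per genotype. *Nr0b2* was not shown to differ from *Nr1h3* (mean log2 difference -0.07, higher in 9 of 18 mice, permutation p = 0.697, adjusted p = 0.697). Nor was *Ppard* from *Pparg*, as 7 of 18 mice had more *Ppard* (mean log2 difference -0.18, permutation p = 0.578, adjusted p = 0.650). Both log2 differences ran against the order of the means. The other 7 pairs differed in THRB-WT livers on average over the sampling times, with adjusted p between 0.000135 and 0.0157 (permutation test). The order did not hold in each mouse: *Ppara* exceeded *Ppard* in 12 of 18 mice, and *Nr1h4* exceeded *Nr0b2* in 13 of 18. In THRB-KO livers *Nr0b2* stood between *Nr1i2* and *Rxrb* with 32.95 ± 17.5 CPM per kb, and was not shown to differ from *Nr1i2* (permutation p = 0.230, adjusted p = 0.259, n = 18).

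**Figure D1:**
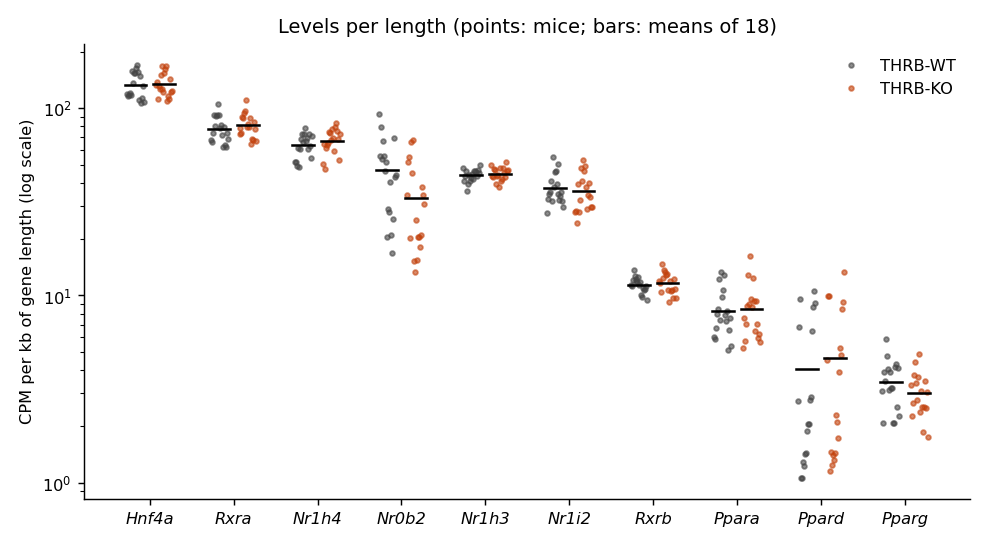
Level of each receptor transcript in CPM per kb of gene length (log axis) in 18 THRB-WT (grey) and 18 THRB-KO (orange) livers, with points for mice and black bars for the mean of each genotype. *Hnf4a* lies highest at 106.5 to 170.6 in THRB-WT livers, and *Ppard* has the widest spread, from 1.06 to 10.6.

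Most of the receptor transcripts followed a daily rhythm. Of the 10 receptors, 8 were rhythmic with a period of 24 h in THRB-WT livers, against 33% of the 17994 tested genes (edgeR quasi-likelihood test of cosine and sine terms, adjusted p under 0.05). In THRB-KO livers 8 of 10 were rhythmic, against 28.9% of genes. Both tests were passed by 7 receptors, against 21.5% of genes. *Nr1h3* passed neither test, *Pparg* passed in THRB-KO livers alone and *Hnf4a* in THRB-WT livers alone. When the mice of 1 letter were left out, 4 to 6 receptors were called in THRB-KO livers. The calls over all genes fell as well. They were 2699 of 17103 genes without a, 3260 of 17031 without b and 2394 of 17034 without c, against 5201 of 17994. *Ppara*, *Ppard* and *Nr1i2* were called in each of these fits.

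**Figure D2:**
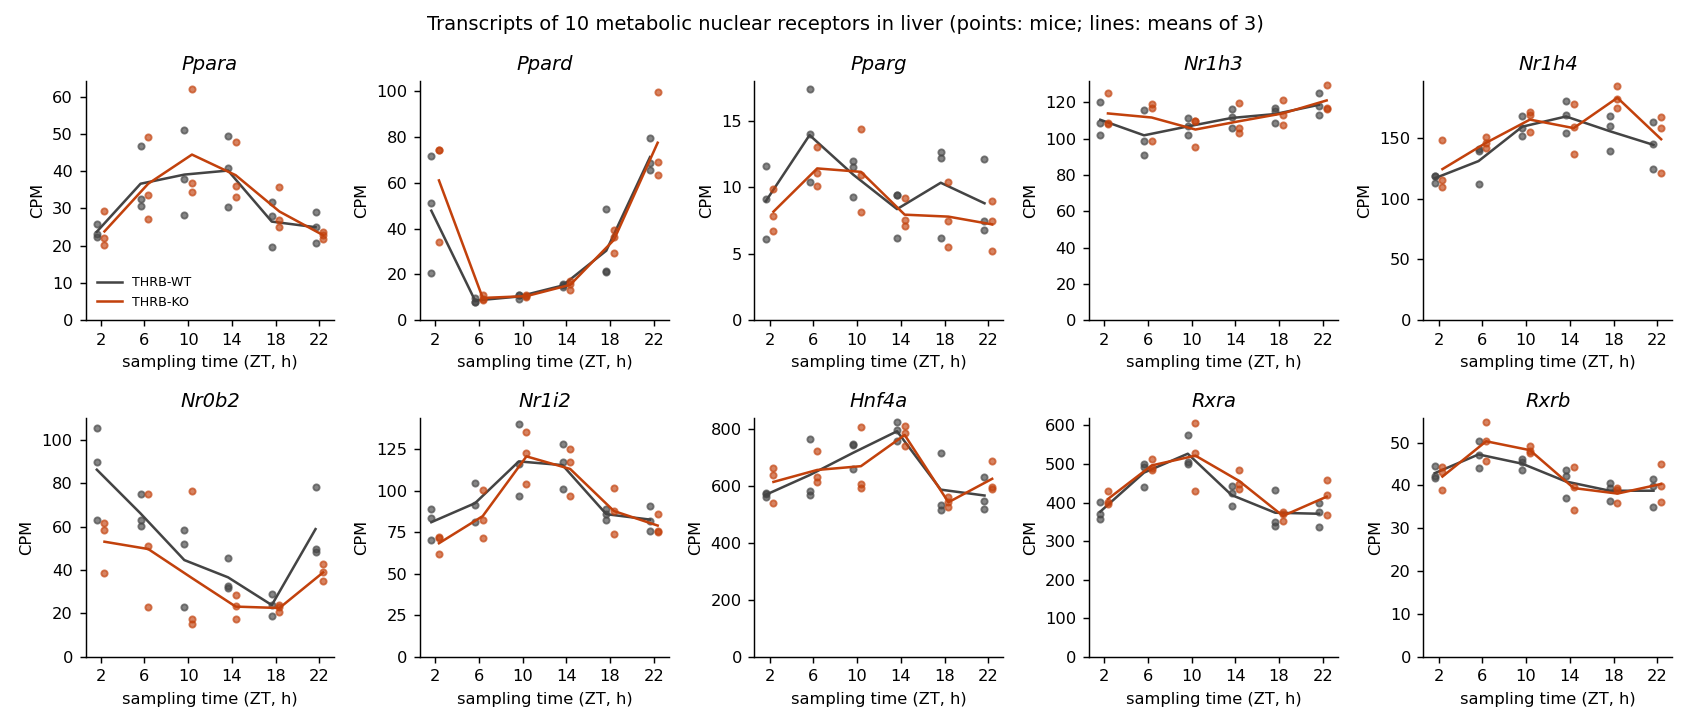
Level of each receptor transcript in CPM (linear axes from 0) against sampling time in h, with points for single mice, lines for means of 3 mice, grey for THRB-WT and orange for THRB-KO. *Ppard* has its lowest mean at ZT6 and its highest at ZT22 in both genotypes, and the THRB-KO mean of *Nr0b2* lies under the THRB-WT mean at all 6 times.

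Among the fatty acid receptors, *Ppard* had the largest daily range of the 10. In THRB-WT livers its level was 7.98, 7.96 and 9.67 CPM in the 3 mice at ZT6, 9.27, 10.8 and 10.9 CPM at ZT10 and 14.3, 15.4 and 15.6 CPM at ZT14. It was 20.8, 21.5 and 48.6 CPM at ZT18, 65.5, 79.4 and 68.8 CPM at ZT22 and 20.5, 51.2 and 71.7 CPM at ZT2. The 3 mice of a time were close together while the level was low, and spread widely at ZT18 and ZT2, on either side of the maximum. In THRB-KO livers the 3 mice had 8.67, 11.0 and 9.31 CPM at ZT6, 10.6, 9.97 and 10.8 CPM at ZT10 and 17.3, 15.9 and 13.1 CPM at ZT14. They had 29.5, 39.3 and 36.3 CPM at ZT18, 63.6, 69.1 and 99.9 CPM at ZT22 and 34.2, 74.4 and 74.4 CPM at ZT2. The mean at ZT22 was 8.35-fold that at ZT6 in THRB-WT and 8.01-fold in THRB-KO livers, and the mice of these times did not overlap. The log2 amplitude (from the mean of the fitted curve to its peak) was 1.46 ± 0.197 (SE) in THRB-WT mice and 1.58 ± 0.161 in THRB-KO mice. The fitted peak was at ZT21.8 ± 0.515 h and ZT22.0 ± 0.389 h, late in the dark phase (adjusted p = 6.14e-06 and 1.44e-06, edgeR, n = 18 each).

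*Ppara*, which controls fatty acid oxidation in the fasted liver, peaked almost in antiphase. Its level ranged from 19.7 to 51.1 CPM (median 29.7) in THRB-WT and from 20.2 to 62.1 CPM (median 31.2) in THRB-KO livers. The log2 amplitude was 0.41 ± 0.102 and 0.49 ± 0.0982, with peaks at ZT10.7 ± 0.942 h and ZT10.9 ± 0.772 h. Means of the 3 mice ran from 23.7 CPM at ZT2 to 40.2 CPM at ZT14 in THRB-WT livers, without overlap between these times. Per length, the level of *Ppard* was 0.12 times that of *Ppara* at ZT6 and 1.48 times at ZT22 in THRB-WT livers (means of 3 ratios), and 0.14 and 1.75 times in THRB-KO livers. The order of the pair was therefore reversed within the day in both genotypes. *Pparg*, the receptor of adipogenesis, was low throughout, at 6.13 to 17.4 CPM (median 9.91) in THRB-WT and 5.18 to 14.4 CPM (median 8.56) in THRB-KO livers. Its rhythm had an adjusted p of 0.347 in THRB-WT and of 0.0324 in THRB-KO livers (edgeR), with a log2 amplitude of 0.24 ± 0.142 and 0.35 ± 0.106. Without the mice of any 1 letter, or with sampling time as a factor, the THRB-KO call was lost. The rhythm itself was not shown to differ between genotypes.

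*Nr0b2* was the other receptor gene with a large rhythm. In THRB-WT livers the log2 amplitude was 0.79 ± 0.151 with a peak at ZT3.45 ± 0.730 h, and in THRB-KO livers it was 0.66 ± 0.203 with a peak at ZT2.79 ± 1.17 h (adjusted p = 0.000530 and 0.0255, edgeR). The mean of THRB-WT mice was 86.4 CPM at ZT2 and 23.9 CPM at ZT18, a 3.62-fold range, and that of THRB-KO mice was 53.1 and 22.5 CPM, a 2.36-fold range. The THRB-KO rhythm was lost without the mice of letter b (adjusted p = 0.335) or c (adjusted p = 0.195), and was kept without those of letter a (adjusted p = 0.00186, edgeR). With all mice, it was not called under robust estimation (adjusted p = 0.0548, edgeR) or with sampling time as a factor. *Nr1h4*, whose product induces *Nr0b2*, peaked at another time of day, at ZT14.5 ± 0.713 h in THRB-WT and ZT14.9 ± 1.15 h in THRB-KO livers. Its log2 amplitude was 0.24 ± 0.0452 and 0.20 ± 0.0613, and its levels were 112.3 to 180.5 CPM (median 148.0) and 109.4 to 192.5 CPM (median 156.7). The THRB-KO rhythm of *Nr1h4* (adjusted p = 0.0390, edgeR) was not called when the mice of any single letter were left out. Nor was it called with sampling time as a factor. Per length, the level of *Nr0b2* was 1.51 times that of *Nr1h4* at ZT2 and 0.31 times at ZT18 in THRB-WT livers (means of 3 ratios). In THRB-KO livers these ratios were 0.88 and 0.25.

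The oxysterol receptor gene *Nr1h3* was nearly level over the day. Its transcript ranged from 91.2 to 125.1 CPM (median 111.7) in THRB-WT and from 95.6 to 129.9 CPM (median 111.6) in THRB-KO livers. The log2 amplitude was 0.09 ± 0.0319 and 0.08 ± 0.0350, with an adjusted p for rhythm of 0.129 and 0.207 (edgeR). *Nr1i2*, which induces drug-metabolizing enzymes, ranged from 70.5 to 140.1 CPM (median 89.9) in THRB-WT and from 61.9 to 135.4 CPM (median 86.7) in THRB-KO livers. Its peak was at ZT11.6 ± 0.751 h and ZT12.4 ± 0.631 h, with a log2 amplitude of 0.29 ± 0.0575 and 0.38 ± 0.0635. The fitted peak thus lay near the transition from light to darkness in both genotypes. Among the times sampled, the mean of *Nr1i2* was highest at ZT10 (117.7 CPM in THRB-WT and 120.7 CPM in THRB-KO livers).

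*Hnf4a* ranged from 514.0 to 823.5 CPM (median 606.7) in THRB-WT and from 525.0 to 810.5 CPM (median 622.0) in THRB-KO livers. It was rhythmic in THRB-WT livers, with a log2 amplitude of 0.24 ± 0.0561 and a peak at ZT11.7 ± 0.905 h (adjusted p = 0.00702, edgeR). In THRB-KO livers the log2 amplitude was 0.13 ± 0.0623, which did not pass (adjusted p = 0.206, edgeR), and the difference of the amplitudes did not pass either (-0.10 ± 0.0839, adjusted p = 1.0 over all genes). The partner *Rxra* ranged from 336.7 to 574.5 CPM (median 413.5) and from 352.9 to 606.4 CPM (median 433.1), and peaked at ZT9.13 ± 0.628 h and ZT8.55 ± 0.798 h. *Rxrb* ranged from 34.9 to 50.5 CPM (median 42.3) and from 34.3 to 54.8 CPM (median 43.7), and peaked at ZT7.12 ± 0.731 h and ZT6.91 ± 0.808 h. The log2 amplitudes of *Rxra* were 0.26 ± 0.0430 and 0.22 ± 0.0465, and those of *Rxrb* were 0.15 ± 0.0286 and 0.20 ± 0.0421. The THRB-WT call of *Rxrb* was lost without letter a (adjusted p = 0.147) or c (adjusted p = 0.0624) and with sampling time as a factor (adjusted p = 0.0847, edgeR). In THRB-KO livers *Rxra* was not called without the mice of letter b (adjusted p = 0.0630), and *Rxrb* not without those of letter c (adjusted p = 0.0623, edgeR). *Rxra* exceeded *Rxrb* in each mouse, by 5.70 to 8.94 times per length in THRB-WT and by 6.06 to 8.65 times in THRB-KO livers. The partner genes and *Ppara*, *Hnf4a* and *Nr1i2* all had fitted peaks between ZT6.91 and ZT12.4, and *Ppard* lay about opposite to them.

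**Figure D3:**
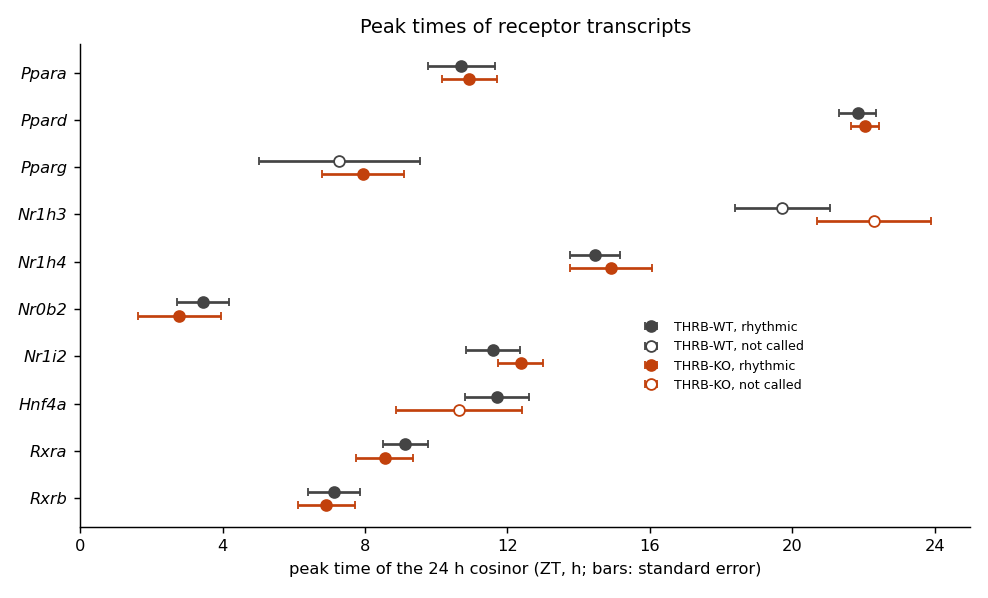
Fitted peak time in h (ZT) of each receptor transcript with its standard error, in THRB-WT (grey) and THRB-KO (orange) livers, with filled symbols for genes called rhythmic and open symbols for the others. The 2 genotypes lie close together for *Ppard* (ZT21.8 and ZT22.0) and *Ppara* (ZT10.7 and ZT10.9), and *Nr1h3*, which was not called, has the largest difference of the fitted peaks (2.58 h).

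No rhythm of a receptor was shown to differ between genotypes. The joint test of amplitude and phase called 0 of 10 receptors and 0% of all tested genes (edgeR, with 553 genes and 0 receptors at an unadjusted p under 0.05, n = 18 per genotype). In the cosinor comparison of genotypes (Wald tests adjusted over all genes), 0 of 10 receptors passed for amplitude, peak time or mesor, the mean of the fitted curve. Of all genes, 0%, 0.0556% and 0.695% passed. At an unadjusted p under 0.05 this was 0, 0 and 1 receptor, the mesor of *Nr0b2* (-0.53 ± 0.179, adjusted p = 0.202 over all genes). All differences of peak time among the 7 receptors rhythmic in both genotypes were between -0.66 ± 1.35 h (*Nr0b2*) and 0.78 ± 0.995 h (*Nr1i2*). Most precise was *Ppard*, with a difference of 0.21 ± 0.641 h.

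The comparison of genotypes with sampling time in the model addressed whether loss of THRB moved the level of these receptors. It called 0 of 10 receptors at an adjusted p under 0.05 (edgeR), against 0.95% of all tested genes. *Nr0b2* had the largest difference, with a log2 fold change of -0.46 ± 0.163 (THRB-KO minus THRB-WT, 95% confidence interval -0.79 to -0.13, adjusted p = 0.203). It was the 1 receptor with an unadjusted p under 0.05 (0.00774, edgeR, n = 18 per genotype), a limit passed by 12.1% of all genes. With the same model terms, DESeq2 and limma called 0 receptors. With the letter of the mice as a block in the model, *Nr0b2* was called (log2 fold change -0.53, adjusted p = 0.028, edgeR), and 387 genes in all against 171. The call of *Nr0b2* thus depended on whether the letter was in the model. The intervals of *Nr1h3*, *Nr1h4*, *Nr1i2*, *Rxra*, *Rxrb* and *Hnf4a* lay between -0.18 and 0.18, and that of *Pparg* ran from -0.42 to 0.03. With the sampling times pooled, 0 of 10 receptors were called, against 0.361% of genes, and the log2 fold change of *Nr0b2* was -0.50 ± 0.229 (adjusted p = 0.664, edgeR).

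**Figure D4:**
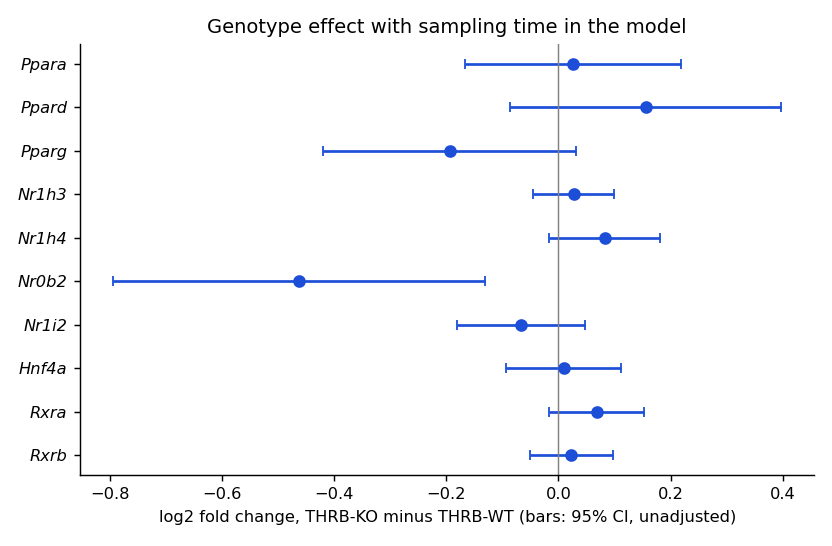
Log2 fold change of each receptor transcript between THRB-KO and THRB-WT livers with its unadjusted 95% confidence interval, from the fit with sampling time in the model. The interval of *Nr0b2* (-0.79 to -0.13) alone leaves out 0, and its adjusted p over all genes is 0.203.

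The values behind the *Nr0b2* difference were as follows. In THRB-WT livers it was at 106, 63.1 and 90.1 CPM at ZT2, 60.3, 75.1 and 63.0 CPM at ZT6 and 52.1, 58.6 and 23.1 CPM at ZT10. It was at 32.8, 31.6 and 45.6 CPM at ZT14, 23.7, 19.0 and 28.9 CPM at ZT18 and 78.6, 48.4 and 49.8 CPM at ZT22. The highest values thus fell into the hours around lights on. In THRB-KO livers it was at 38.8, 58.6 and 61.9 CPM at ZT2, 22.9, 75.1 and 51.2 CPM at ZT6 and 76.7, 17.2 and 15.1 CPM at ZT10. It was at 28.6, 17.6 and 23.3 CPM at ZT14, 23.1, 20.7 and 23.8 CPM at ZT18 and 42.9, 39.1 and 34.9 CPM at ZT22. The highest THRB-KO value of all, 76.7 CPM, came from 1 mouse at ZT10 whose companions had the lowest values. The mean log2 level of THRB-KO mice was lower at 6 of 6 sampling times, as it was for 4.1% of all genes. The mean summed level of 5 cholangiocyte markers, none of them at 0 in all libraries, was also lower at 6 of 6 times. The sum ranged from 34.2 to 63.6 CPM in THRB-WT and from 27.2 to 51.4 CPM in THRB-KO livers. Most of it came from 1 gene, *Spp1* (mean 31.8 CPM), and the lowest marker was *Epcam* (1.37 CPM). Of these markers 0 passed the test for genotype, and their part in the *Nr0b2* difference was not tested. At ZT2, ZT14 and ZT22 the 3 THRB-KO mice lay below the 3 THRB-WT mice without overlap (exact permutation p = 0.1 each, the smallest that 3 against 3 allows). A gap of this kind in this direction at 3 or more times was found in 0.639% of all genes. At ZT18, the time of the lowest level in both genotypes, the means were 23.9 and 22.5 CPM. Left out by letter, the log2 fold change was -0.53 without a, -0.49 without b and -0.43 without c, with adjusted p of 0.252, 0.327 and 0.550 (edgeR).

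Over the 60 pairs of groups (10 receptors at 6 times), 6 did not overlap, that is 10%, against 9.96% over all genes and times. Beside the 3 of *Nr0b2*, these were *Nr1h4* with higher THRB-KO values at ZT6 and ZT18, and *Rxrb* with higher THRB-KO values at ZT10. *Nr1h4* was at 159.5, 138.8 and 167.9 CPM in THRB-WT and at 181.9, 192.5 and 174.3 CPM in THRB-KO livers at ZT18. *Rxrb* was at 45.4, 43.5 and 46.3 CPM in THRB-WT and at 49.1, 47.5 and 48.1 CPM in THRB-KO livers at ZT10. The single-time tests called 0 receptors at any time, and 0 at an unadjusted p under 0.05 (n = 36 libraries in 1 fit). They called 0.0278% of all genes at ZT2, 0.0111% at ZT6, 0.0167% at ZT10 and at ZT14, and 0.0222% at ZT18 and at ZT22 (edgeR, 12 groups of 3). The genotype effect was not shown to vary with time for any receptor or any gene (0% called, 484 genes at an unadjusted p under 0.05 and none of them a receptor, n = 18 per genotype).

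*Pparg* and *Ppard* had the next largest differences. For *Pparg* the THRB-KO mean log2 level was lower at 6 of 6 times, although at ZT10 the mean CPM was higher (11.15 against 10.94 CPM) and so was the fitted value (0.03 ± 0.283 on the log2 scale, edgeR). Over all times the log2 fold change was -0.19 ± 0.111 (adjusted p = 0.503, edgeR). For *Ppard* it was higher at 6 of 6 times, as for 4.05% of all genes, with a log2 fold change of 0.16 ± 0.119 (adjusted p = 0.657, edgeR). Neither difference passed. *Rxra*, the more abundant partner gene, had 0.07 ± 0.0416, and *Nr1h4* had 0.08 ± 0.0487. The values of *Ppara* (0.03 ± 0.0948), *Nr1h3* (0.03 ± 0.0357), *Rxrb* (0.02 ± 0.0366) and *Hnf4a* (0.01 ± 0.0502) were close to 0, as was that of *Nr1i2* (-0.07 ± 0.0561).

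Genes downstream of the receptors were described by lists of textbook targets. Of 26 PPAR alpha targets, 0 passed the test for genotype, against 0.95% of all tested genes. The median log2 fold change of these targets was 0.05, beside -0.001 over all tested genes. Of 6 tested PPAR gamma targets, 12 LXR targets, 12 PXR targets and 12 HNF4A targets, 0 passed, with medians of 0.17, -0.02, 0.13 and 0.07. At an unadjusted p under 0.05 (edgeR, n = 18 per genotype) were 8 PPAR alpha, 1 PPAR gamma, 2 LXR, 4 PXR, 3 HNF4A and 3 FXR-induced targets, a limit passed by 12.1% of all genes. Of 8 genes induced by FXR, 1 was higher in THRB-KO livers. This was *Abcb11*, the bile salt export pump, with 521 ± 165 CPM in THRB-WT and 594 ± 162 CPM in THRB-KO livers (SD, n = 18). Its log2 fold change was 0.20 ± 0.0498 (adjusted p = 0.0324, edgeR). Of 3 genes repressed through FXR and SHP, 0 passed and 1, *Cyp7a1*, had an unadjusted p under 0.05 (edgeR, n = 18 per genotype). *Cyp7a1*, the rate-limiting enzyme of bile acid synthesis and also a target of LXR, was at 99.0 ± 62.8 and 149.2 ± 88.5 CPM, with a log2 fold change of 0.73 ± 0.205 (adjusted p = 0.0797, edgeR). *Cyp8b1*, the sterol 12-alpha-hydroxylase, was at 343 ± 157 and 397 ± 185 CPM (log2 fold change 0.19 ± 0.148, adjusted p = 0.663). Among 24 tested nuclear receptors outside the 10, 0 passed and 1, *Thrb* itself, had an unadjusted p under 0.05 (log2 fold change 0.13 ± 0.0528, adjusted p = 0.309, edgeR).

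**Figure D5:**
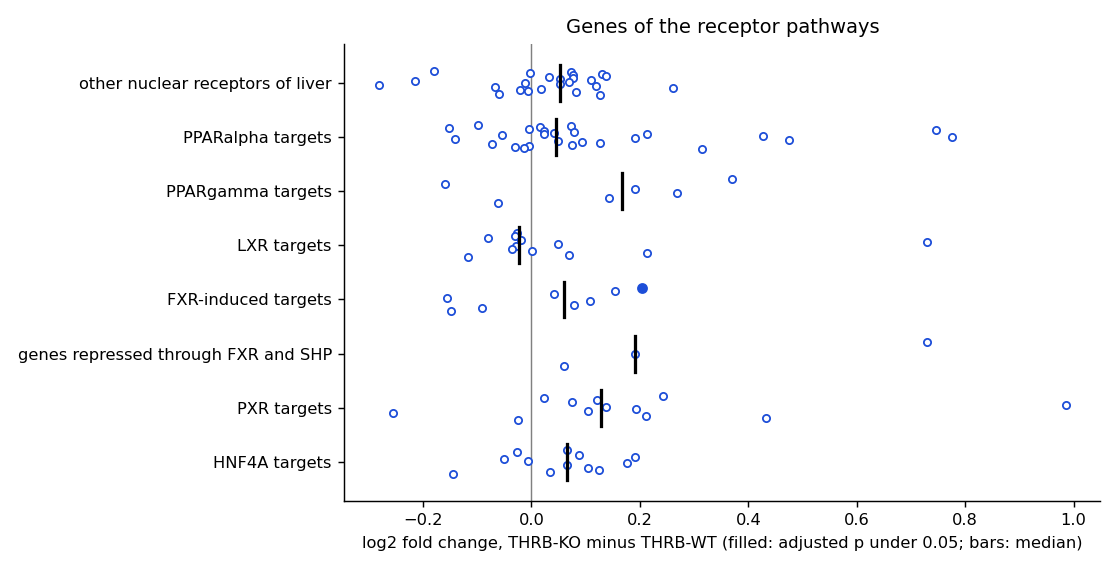
Log2 fold change between THRB-KO and THRB-WT livers of each tested gene on 8 lists, with filled symbols for an adjusted p under 0.05 and black bars for the median of a list. *Abcb11* (0.20), on the list of FXR-induced targets, is the filled symbol.

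Rhythms of the target genes were set beside those of their receptors. Of 26 PPAR alpha targets, 10 were rhythmic in both genotypes, against 21.5% of all genes, and *Acot3* and *Pdk4* had the largest amplitudes in THRB-WT livers. *Acot3*, a peroxisomal thioesterase, peaked at ZT14.2 ± 0.665 h and ZT13.8 ± 0.856 h with a log2 amplitude of 1.68 ± 0.292 and 1.62 ± 0.364. *Pdk4*, the kinase that inhibits pyruvate dehydrogenase, peaked at ZT22.4 ± 0.560 h and ZT21.1 ± 0.612 h, close to the peak of *Ppard* and far from that of *Ppara*. Among the bile acid genes, *Abcb11* peaked at ZT2.86 ± 0.383 h in THRB-WT and ZT3.01 ± 0.314 h in THRB-KO livers, near the peak of *Nr0b2*. *Cyp7a1* peaked at ZT15.0 ± 0.693 h and ZT15.4 ± 0.991 h, and *Cyp8b1* at ZT22.4 ± 0.651 h and ZT22.5 ± 0.775 h. The 2 enzymes of bile acid synthesis were thus highest at different times of the night, *Cyp7a1* when *Nr0b2* was near its minimum. *Abcc2*, an export pump for conjugates, peaked at ZT8.37 ± 0.550 h and ZT10.2 ± 0.545 h.

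For the other receptors, the rhythmic targets were spread over the day. *Abcg8*, which secretes sterols and responds to LXR, peaked at ZT7.67 ± 0.235 h and ZT8.25 ± 0.332 h with a log2 amplitude of 1.13 ± 0.0699 and 1.05 ± 0.0914. The PXR targets *Por*, the reductase of cytochromes P450, and *Slco1a4*, an uptake transporter, peaked at ZT12.3 ± 0.242 h and ZT9.94 ± 0.413 h in THRB-WT livers. *Pck1*, a gluconeogenic enzyme among the HNF4A targets, peaked at ZT8.95 ± 0.450 h and ZT10.3 ± 1.10 h. Of the PPAR gamma targets, *Plin4*, a lipid droplet protein, peaked at ZT13.0 ± 0.716 h and *Lpl*, lipoprotein lipase, at ZT3.37 ± 0.771 h in THRB-WT livers. Among the other nuclear receptors, the clock repressors *Nr1d1* and *Nr1d2* had the largest log2 amplitudes, 2.98 ± 0.229 and 1.81 ± 0.151 in THRB-WT livers.

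Likeness of pattern was described by Pearson's r of log2 CPM over the 36 livers, which share genotype groups and sampling times. Among 11908 genes, *Ppard* was most like *Lgalsl* (r = 0.916) and *Dapk1* (0.896). *Ppara* was most like *Fam120a* (0.892), *March8* (0.875) and *Myo18a* (0.865), and *Rxra* was most like *Uri1* (0.899), *Fam91a1* (0.890) and *Cpt1a* (0.889), the carnitine palmitoyltransferase of fatty acid oxidation. *Hnf4a* was most like *Togaram1* (0.881), *Ddx3x* (0.869) and *Icmt* (0.826), *Nr1i2* most like *Ddx5* (0.848), *Akr1c12* (0.848) and *Aifm2* (0.847), and *Rxrb* most like *Mepce* (0.842), *Tnks2* (0.840) and *Otud5* (0.839). The highest values were lower for *Nr1h4*, with *Sec24a* (0.785), the clock gene *Per2* (0.780) and *Tmcc1* (0.770), and for *Nr1h3*, with *Ovca2* (0.750), *Slc25a45* (0.732) and *Mdp1* (0.720). They were lowest for *Pparg*, with *Trrap* (0.739), *Arhgap18* (0.710) and *Gnai2* (0.710), and for *Nr0b2*, with *Dirc2* (0.736), *Lpin3* (0.726) and *Sirt5* (0.719). Between the receptors themselves, r was 0.74 for *Ppara* and *Hnf4a*, 0.69 for *Rxra* and *Rxrb*, -0.68 for *Ppara* and *Ppard* and -0.70 for *Ppard* and *Rxra*. For *Nr1h4* and *Nr0b2* it was -0.50.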

How the data were processed

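RNA of 36 livers was sequenced by the authors. Filtered read pairs were aligned by HISAT2 (GRCm38) and assigned to genes by featureCounts, and the deposited whole-number counts of 54532 genes are neither normalized nor filtered. The libraries were non-directional, so reads carry no strand. Versions and annotation release are not given in the sources used here, and reads shared by similar genes can move between them. Genotype, sampling time and letter (a, b or c) of each mouse came from the labels.

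A sum of 100 counts or more across libraries was required for testing, which left 17994 genes, the 10 receptors included (172 or more counts in each library). Counts were normalized by TMM and tested with edgeR 4.0.16 (quasi-likelihood, limma 3.58.1, R 4.3.3), with Benjamini-Hochberg adjustment over all tested genes and a threshold of 0.05. Cosinor values (period 24 h) were fitted to log2 CPM with a prior count of 2, with standard errors by the delta method, and genotypes were compared after the CircaCompare model. Neighbouring levels were compared within mice by 100000 sign flips. RefSeq promoter windows were searched for exact motifs. Python 3.11.15, numpy 2.4.6, scipy 1.17.1 and pandas 2.3.3 were used, and the scripts were tested on simulated data.

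The receptors and lists were chosen with earlier results of these data known. Named genes are the 10 receptors, list genes that passed the genotype test, the 2 genes of each list with the largest THRB-WT amplitude among those rhythmic in both genotypes, and the 3 genes most like each receptor (mean of at least 50 counts), of which 1 is not reported here. Alternatives were DESeq2 1.42.0 (size factors and likelihood ratio tests), other filters, robust estimation, limma, sampling time as a factor, the letter as a block and leaving out the mice of a letter. Mice of the same letter and time deviated together in part (r from -0.073 to 0.397 over 18 pairs, 16 above 0.1). Of 18 THRB-WT mice, 17 correlated best with the THRB-KO mouse of their own letter. The meaning of the letters is not stated and not every pair deviated together, and the main tests did not pair mice by letter. Variation shared within a letter therefore stayed in the error of these tests. With the letter as a block, *Nr0b2* was called by genotype, and 387 genes in all against 171. No 2 libraries of a group agreed within sampling noise. The labels name single mice, but no batch.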

Additional observations from a re-analysis of the deposited data

How the results depend on the processing

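Under other size factors, other filters, robust estimation, DESeq2, limma and without any 1 letter, 0 of 10 receptors were called by genotype. With the letter as a replicate block, 1 was called, *Nr0b2* (log2 fold change -0.53, adjusted p = 0.028, edgeR), and 387 genes in all against 171 without the block. The labels do not say what the letters mean. Mice of the same letter and time deviated together in part, and 17 of 18 THRB-WT mice correlated best with the THRB-KO mouse of their own letter. Under the block, 0 receptors differed in rhythm and 0 in the genotype effect between times. The log2 fold change of *Nr0b2* ranged from -0.53 to -0.43 over 10 alternatives, with adjusted p from 0.028 to 0.550. Leaving out the mice of a letter turned the sign of values near 0. The range of the log2 fold change was -0.013 (without b) to 0.092 for *Ppara*, also negative without c (-0.00011). It was -0.0029 (without b) to 0.074 for *Nr1h3*, -0.0027 (without a) to 0.060 for *Rxrb* and -0.012 (without a) to 0.025 for *Hnf4a*.

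Of the rhythms, 8 receptors were called in THRB-KO livers. This count ranged from 4 to 6 without the mice of a letter (6 without a, 4 without b and 4 without c). It was 7 under robust estimation and 5 with sampling time as a factor of 6 levels. In THRB-WT livers it was 7 to 8. For all genes, the likelihood ratio test of DESeq2 called 306 by genotype against 171 with edgeR. Without a, b or c, 42, 85 and 68 genes were called by genotype. With times pooled, 16, 25 and 22 were called against 65. In THRB-KO livers 2699, 3260 and 2394 genes were rhythmic against 5201, and without c 3175 against 5936 in THRB-WT livers. Of 100 amplitudes under alternatives 5 moved by more than their standard error, and of 80 peak times 11. The largest shift was 1.78 h, for *Ppara* in THRB-WT livers. Leaving out a letter keeps 2 mice per group and time, and 3 per group limit the single-time tests. For *Pparg*, with 172 to 594 counts per library, counting adds to the spread.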
